A study of Mus musculus with 20 samples.

Results

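The genes examined here encode the enzymes that build heme and the reductases that turn its breakdown product into bilirubin, measured in mouse liver 4 hours after an injection of interleukin-1β (IL-1β), a cytokine that starts the acute-phase response. The members were the 9 rows whose symbol was Alas1, Alad, Uros, Urod, Cpox, Ppox, Fech, Blvra or Blvrb, out of 37681 genes listed in each table. All 9 passed the detection filter, a minimum of 5 reads in 5 libraries of any 1 table, as did 15578 genes in all. The series compared the Illumina and Ion Torrent platforms on the same RNA, with reads placed by 3 alignment routes (STAR, GSNAP, and STAR followed by Bowtie2), which gives 6 count tables. The 10 mice were wild-type males of a C57/BL6 background (C57/B6J from the breeder), 12 weeks old. IL-1β at 20 µg/kg was given intraperitoneally to 5 of them, and the other 5 received saline (untreated). Mice carry the names of the labels, ILB_ for IL-1β and UNT_ for untreated. Each mouse gave 1 liver RNA sample, from which 1 Illumina and 1 Ion Torrent library were made, so the 6 tables rest on the same 10 animals. Whole liver was sequenced, so fewer cells of a type and less RNA per cell cannot be told apart.

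Heme is made in steps that begin and end in mitochondria. Aminolevulinate synthase (Alas1 in most tissues, Alas2 in red cell precursors) joins glycine and succinyl-CoA and is the rate-limiting step. Alad, Uros and Urod then help to build and trim the porphyrin ring in the cytosol. Cpox and Ppox oxidize it in the mitochondrion, and Fech inserts the iron. The liver is a major user of heme, much of it for cytochromes P450, and heme itself holds Alas1 down. Heme oxygenase (Hmox1 and Hmox2) opens the ring to biliverdin. Biliverdin reductase A (Blvra) makes bilirubin from it, while biliverdin reductase B (Blvrb) is a flavin reductase that acts mainly on other biliverdin isomers. Ugt1a1 conjugates bilirubin for excretion into bile.

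IL-1β was followed by more Alas1 and Blvra RNA and by less Urod, Cpox and Fech RNA, called in all 6 tables. In the Illumina STAR table, 2 of the 9 genes rose (Alas1 2.02-fold and Blvra 1.42-fold) and 4 fell (Cpox 2.10-fold, Fech 1.67-fold, Urod 1.30-fold and Uros 1.25-fold lower). Alad, Ppox and Blvrb were not called. A call means an adjusted p below 0.05 in edgeR's quasi-likelihood test, with the Benjamini-Hochberg adjustment over all 15578 genes. Calls were common over all genes, with 22.7% called higher and 22.9% called lower in that table. Scaling by library totals without TMM moved the median log2 fold change of genes averaging 10 or more counts from 0.0047 to -0.12. Against that shift it called 17.6% higher and 27.8% lower, with 2 and 5 of the 9 genes, Blvrb being added. The median log2 fold change of the 9 genes was -0.28, beside 0 for all genes tested.

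An Illumina library held 10568530 to 12008799 counts and an Ion Torrent library 12199528 to 16439683. In the Illumina STAR table the totals were 10568530 to 10655860 after IL-1β and 10887640 to 11046256 in untreated mice. Untreated mouse UNT_9584 stood apart: the deviation of its Illumina STAR library from its group correlated with that of its Ion Torrent library at r = 0.24 over 10543 genes, against 0.51 to 0.69 for the other 9 mice. For this mouse the paper reports a lower correlation between platforms and shifted read lengths in the Ion Torrent library. It proposes read length as a possible source of technical variability, and the part of read length in the values below was not tested. Calls of the 9 genes and platform terms that turned on this mouse are also given without it. Leaving it out of the Illumina STAR table called 22.6% of all genes higher and 22.4% lower. Hepatocyte genes dominated, with summed CPM (counts scaled to a common library total after TMM adjustment) of 10 markers at 76530.1 to 87146 after IL-1β and 93189 to 114213 in untreated mice. Of these 10 markers, 2 rose, 5 fell and 3 were not called. Of 9 neutrophil markers, 5 were detected and all 5 rose, the summed level going from 0.62 to 2.83 CPM in untreated mice to 40.2 to 90.4 CPM after IL-1β. At such untreated levels a marker passes the detection filter mainly through the IL-1β libraries. A rise of the detected neutrophil markers was thus largely set by the filter. The sum over 9 macrophage markers was 82.9 to 189.8 CPM after IL-1β and 145 to 252 CPM untreated, with 1 marker higher, 3 lower and 5 not called. The part of these shifts in the results that follow was not tested.

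In the annotation of the build used for the counts (mm9, NCBI Build 37), all 9 genes are protein coding. Alas1 lies at chr9:106135786-106150457, Alad at chr4:62170203-62180952, Uros at chr7:140877926-140901755, Urod at chr4:116662570-116667018 and Ppox at chr1:173206121-173211317, all on the minus strand. Cpox (chr16:58670321-58680504), Blvra (chr2:126896401-126922820) and Blvrb (chr7:28232997-28251163) are on the plus strand. Exons of Ppox share 791 of their 4515 bases (17.5%) with B4galt3 on the opposite strand, which had a mean of 141 counts in the Illumina STAR table, and how the counting used strand is not given in the sources used here. Alas1 shares 114 of 4310 exon bases (2.65%) with the antisense transcript 4930500F10Rik, which had a mean count of 0.1.

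The sequences just upstream of these genes show which short motifs lie near genes that moved together or apart. RefSeq promoters (GRCm38.p6, a later build than that of the counts) were found for 8 of the 9 genes, and 10 motifs were searched on both strands in the 250 bases before the most upstream start. Sites of nuclear respiratory factor 1 (the NRF1 consensus) were held by 3.58% of 27018 promoters searched. Alas1 has 3 matches near its upstream annotated start, of which 2 overlap each other, and none lies wholly in the 250 bases before that start. The third match, a perfect palindrome, begins 29 bases after the upstream start and lies 195 bases before the downstream one. It is printed with its flanks (chr9:106247906-106247935, minus strand) and with the site in capitals, because that factor is known to drive Alas1.
Alas1 NRF1 site: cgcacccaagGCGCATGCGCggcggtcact

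The window before the upstream Alas1 start held a STAT consensus (TTCNNNGAA) at position -171, as do 7.14% of promoters, and a GC box (GGGCGG), as do 33.0%. None of the 8 upstream windows held the NRF1 consensus or an NF-kB consensus, the latter being in 3.74% of promoters. An E-box (CACGTG), the core bound by Usf and Myc family proteins, was in the windows of Alad, Uros and Urod, against 6.04% of all promoters searched. It starts at position -105 in Alad, -49 in Urod and -250 in Uros, where -1 is the base just before the start. The Uros match is thus at the far edge of its window, which also overlaps the gene Bccip. The Blvra window holds an antioxidant response element core (TGACNNNGC, on the opposite strand) at position -49, as do 10.1% of promoters. The Cpox window held none of the 10 motifs and is shown because this gene fell most. Capitals mark the E-box in Alad and Urod and the response element core in Blvra.
Alad, chr4:62520064-62520313, minus strand: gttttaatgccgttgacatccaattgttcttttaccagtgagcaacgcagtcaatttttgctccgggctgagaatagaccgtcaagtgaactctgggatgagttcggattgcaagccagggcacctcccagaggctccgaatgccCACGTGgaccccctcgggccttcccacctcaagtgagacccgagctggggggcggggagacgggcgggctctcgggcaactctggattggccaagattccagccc
Urod, chr4:116994414-116994663, minus strand: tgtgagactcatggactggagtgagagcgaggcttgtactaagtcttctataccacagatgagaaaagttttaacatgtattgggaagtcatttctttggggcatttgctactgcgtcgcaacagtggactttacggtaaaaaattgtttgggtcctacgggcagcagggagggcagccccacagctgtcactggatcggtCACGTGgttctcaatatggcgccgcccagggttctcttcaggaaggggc
Cpox, chr16:58669958-58670207, plus strand: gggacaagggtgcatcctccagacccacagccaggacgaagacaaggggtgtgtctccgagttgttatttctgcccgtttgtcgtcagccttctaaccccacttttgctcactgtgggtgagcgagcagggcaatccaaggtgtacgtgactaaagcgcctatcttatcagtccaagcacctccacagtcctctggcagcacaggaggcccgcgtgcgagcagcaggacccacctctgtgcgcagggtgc
Blvra, chr2:127070407-127070656, plus strand: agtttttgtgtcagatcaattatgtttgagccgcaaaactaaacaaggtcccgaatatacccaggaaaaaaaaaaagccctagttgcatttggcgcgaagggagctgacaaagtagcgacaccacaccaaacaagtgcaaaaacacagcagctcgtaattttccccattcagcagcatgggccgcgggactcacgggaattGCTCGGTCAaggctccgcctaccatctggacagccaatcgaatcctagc
A match is only a run of letters, and no binding was measured in these samples.

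Alas1, the rate-limiting enzyme, was the most abundant of the 9 genes per length of exon and rose after IL-1β. In the Illumina STAR table, its TMM-scaled level in the treated mice was 1562 CPM (mouse ILB_9577), 729 CPM (ILB_9578), 918 CPM (ILB_9579), 1136 CPM (ILB_9582) and 1355 CPM (ILB_9583). In the untreated mice it was 439.8 CPM (UNT_9574), 483 CPM (UNT_9575), 1090.0 CPM (UNT_9576), 508 CPM (UNT_9580) and 304 CPM (UNT_9584). Mouse UNT_9576 was about as high as the treated mice and above 2 of them, ILB_9578 and ILB_9579, so the groups overlapped. The other 4 untreated mice were below every treated mouse.

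The log2 fold change of Alas1 was 1.01 (SE 0.29, 95% interval 0.40 to 1.62), with an adjusted p of 0.00898 in edgeR's quasi-likelihood test. The two-sided exact permutation test over the 10 mice gave p = 0.0238, where the smallest p possible is 0.00794. Without mouse UNT_9576 the log2 fold change was 1.39, with an edgeR adjusted p of 0.000123. Without mouse UNT_9584 it was 0.85, with an edgeR adjusted p of 0.0208. The rank-sum test on the deposited counts, the test used in the study, gave an adjusted p of 0.113 and no call. That test called 13.8% of all genes higher and 24.3% lower. Over the other 5 tables Alas1 had a log2 fold change of 0.91 to 1.0 and was called in each.

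Mouse UNT_9576 was high for Alas1 on both platforms: the Ion Torrent STAR table gave 1686 CPM, beside 534 to 822 CPM in the other untreated mice and 1205 to 2293 CPM in the treated mice. Deviations from the group means of Alas1 correlated between platforms at r = 0.99 over the 10 mice, which share the RNA of each mouse. Alas1 thus varied between mice of a group in the same way in both libraries. Its SD was 332 CPM around 1139.9 CPM in treated mice and 304 CPM around 565 CPM in untreated mice (n = 5 each).

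**Figure D1:**
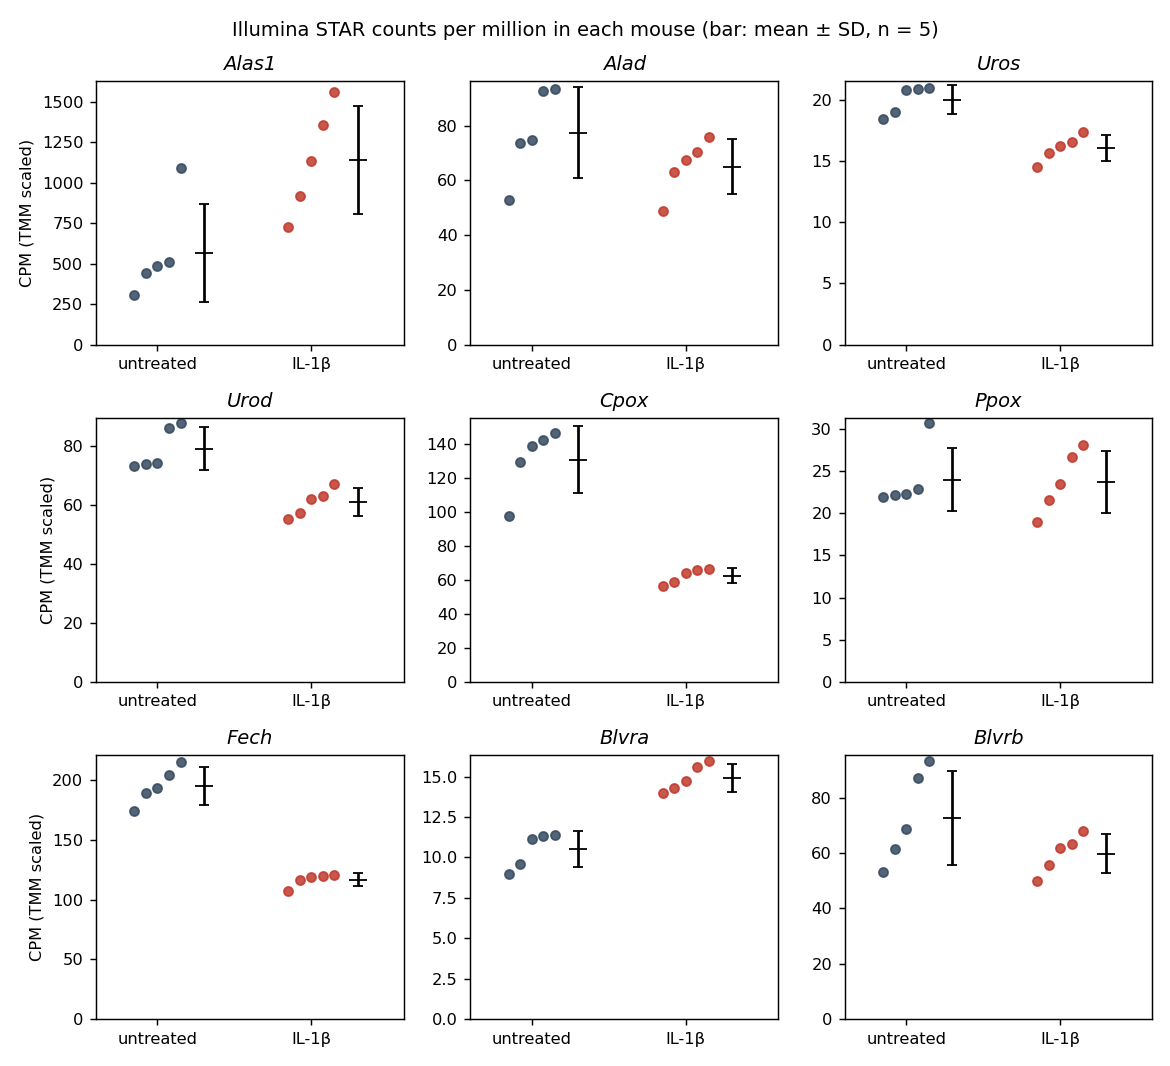
Level of each of the 9 genes in the 10 mice (y axis, TMM-scaled CPM in the Illumina STAR table, from 0), for 5 untreated mice (grey-blue) and 5 IL-1β mice (red), with points sorted by value and the bar giving mean ± SD. Uros, Urod, Cpox and Fech lay lower in every treated mouse and Blvra higher, while 1 untreated mouse reached 1090.0 CPM of Alas1, within the treated range.

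Alad, which condenses aminolevulinate to porphobilinogen, was not called on Illumina. Its Illumina STAR levels were 63.1, 48.8, 70.2, 67.4 and 75.8 CPM in treated mice ILB_9577, ILB_9578, ILB_9579, ILB_9582 and ILB_9583, and 74.8, 73.7, 93.2, 92.6 and 52.9 CPM in untreated mice UNT_9574, UNT_9575, UNT_9576, UNT_9580 and UNT_9584. The groups overlapped, with UNT_9584 the lowest untreated mouse. IL-1β gave a log2 fold change of -0.25 (SE 0.15, 95% interval -0.57 to 0.07), with an edgeR adjusted p of 0.197. Without UNT_9584 it was -0.36, with an edgeR adjusted p of 0.0328, and Alad was then called.

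In the Ion Torrent STAR table, Alad was 121, 77.7, 129, 123 and 134 CPM in the treated mice and 135, 164, 182, 159 and 184 CPM in the untreated mice, in the same order. There the groups did not overlap, and UNT_9584 was the highest of the untreated mice. Alad then had a log2 fold change of -0.50 (SE 0.14), with an edgeR adjusted p of 0.00721. The other Ion Torrent tables gave -0.51 and -0.52, both called. Without UNT_9584, the Ion Torrent STAR value was -0.45 and was still called (edgeR adjusted p 0.0207).

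Uros, which closes the ring to uroporphyrinogen III, was lower in every treated mouse on Illumina. The Illumina STAR levels were 16.2, 17.3, 14.5, 16.6 and 15.7 CPM in treated mice and 20.9, 20.9, 19.1, 18.5 and 20.8 CPM in untreated mice, in the mouse order given for Alad. The difference was small beside that of Cpox, but the spread within groups was smaller still (SD 1.06 and 1.18 CPM). Its log2 fold change was -0.32 (SE 0.099), with an edgeR adjusted p of 0.0154. In the Ion Torrent tables it was -0.21 to -0.14, with edgeR adjusted p of 0.144 to 0.333 and overlapping groups, so the call was limited to the Illumina tables.

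Urod, which trims the side chains of the ring, fell in all 6 tables. Treated mice had 57.1, 55.3, 67, 62.9 and 61.9 CPM in the Illumina STAR table, and untreated mice 73.9, 74.3, 87.7, 86.0 and 73.1 CPM. The highest treated mouse, ILB_9579, was below the lowest untreated mouse, UNT_9584. For Urod the log2 fold change was -0.38 (SE 0.094, 95% interval -0.58 to -0.18), with an edgeR adjusted p of 0.00396. It ranged from -0.47 to -0.37 over the 6 tables, without overlap of the groups in any of them.

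Cpox, coproporphyrinogen oxidase, fell most of the 9 genes in the Illumina STAR table. Treated mice had 59.0, 66.7, 63.9, 56.6 and 66.0 CPM in the Illumina STAR table. Untreated mice had 129.7, 146, 142, 97.5 and 139 CPM. Mouse UNT_9580 was the lowest of the untreated mice, and it was still above every treated mouse. Cpox had a log2 fold change of -1.07 (SE 0.11, 95% interval -1.31 to -0.83), with an edgeR adjusted p of 2.36e-06. Over the 6 tables it was -1.10 to -1.01, and leaving out each mouse in turn gave -1.16 to -1.02.

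Ppox, protoporphyrinogen oxidase, showed no difference that could be called. Treated mice had 28.1, 21.6, 23.5, 18.9 and 26.7 CPM and untreated mice 22.3, 30.7, 22.9, 22.2 and 21.9 CPM in the Illumina STAR table. The log2 fold change was -0.016 with a 95% interval of -0.30 to 0.27 and an edgeR adjusted p of 0.969. The interval spans changes as large as that estimated for Alad, and the sign was not the same in all tables. These counts may hold reads of B4galt3 where the exons overlap, and that share was not tested.

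Fech, ferrochelatase (chromosome 18), fell in all 6 tables and varied little among treated mice. In the Illumina STAR table, treated mice had 119, 107, 120.3, 117 and 119.9 CPM. Untreated mice had 189, 205, 174, 193 and 215 CPM. The groups were far apart relative to their spread, with SDs of 5.34 and 15.7 CPM. Fech had a log2 fold change of -0.74 (SE 0.087, 95% interval -0.93 to -0.56), with an edgeR adjusted p of 6.48e-06, and it was -0.74 to -0.66 over the 6 tables.

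Blvra, the reductase that forms bilirubin, rose in all 6 tables. Treated mice had 14.7, 16, 15.6, 14 and 14.3 CPM and untreated mice 11.2, 9.62, 11.4, 8.97 and 11.3 CPM in the Illumina STAR table. Every treated mouse was above every untreated mouse, although the gene was low, at 101 to 162 counts per library. Its log2 fold change was 0.51 (SE 0.11, 95% interval 0.26 to 0.75), with an edgeR adjusted p of 0.00211. It was 0.41 to 0.55 over the 6 tables.

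Blvrb resembled Alad. Its Illumina STAR levels were 63.3, 50, 61.8, 67.8 and 55.8 CPM in treated mice and 68.7, 61.4, 93.1, 86.9 and 53.2 CPM in untreated mice. Mouse UNT_9584 was again the lowest untreated mouse, and the groups overlapped. Blvrb had a log2 fold change of -0.28 (SE 0.15, 95% interval -0.59 to 0.027), with an edgeR adjusted p of 0.130. Without UNT_9584 it was -0.38, with an edgeR adjusted p of 0.0314.

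On Ion Torrent, UNT_9584 was the highest untreated mouse for Blvrb, at 196 CPM in the STAR table, beside 126 to 173 CPM in the other untreated mice and 110.1 to 135 CPM in the treated mice. There the log2 fold change was -0.38 (SE 0.12), with an edgeR adjusted p of 0.0196, and -0.43 to -0.38 over the Ion Torrent tables, called in each. The call in the STAR table rested on UNT_9584: without it Blvrb had -0.29 there, with an edgeR adjusted p of 0.0668, and was not called. Without it the GSNAP and STAR + Bowtie2 tables gave -0.30 and -0.32, with edgeR adjusted p of 0.0444 and 0.0333, both still called. Correlations of the mice's deviations between the platforms were r = 0.43 for Alad and 0.24 for Blvrb over 10 mice, and 0.80 and 0.84 without UNT_9584. They are descriptions, since the mice share their RNA between platforms.

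**Figure D2:**
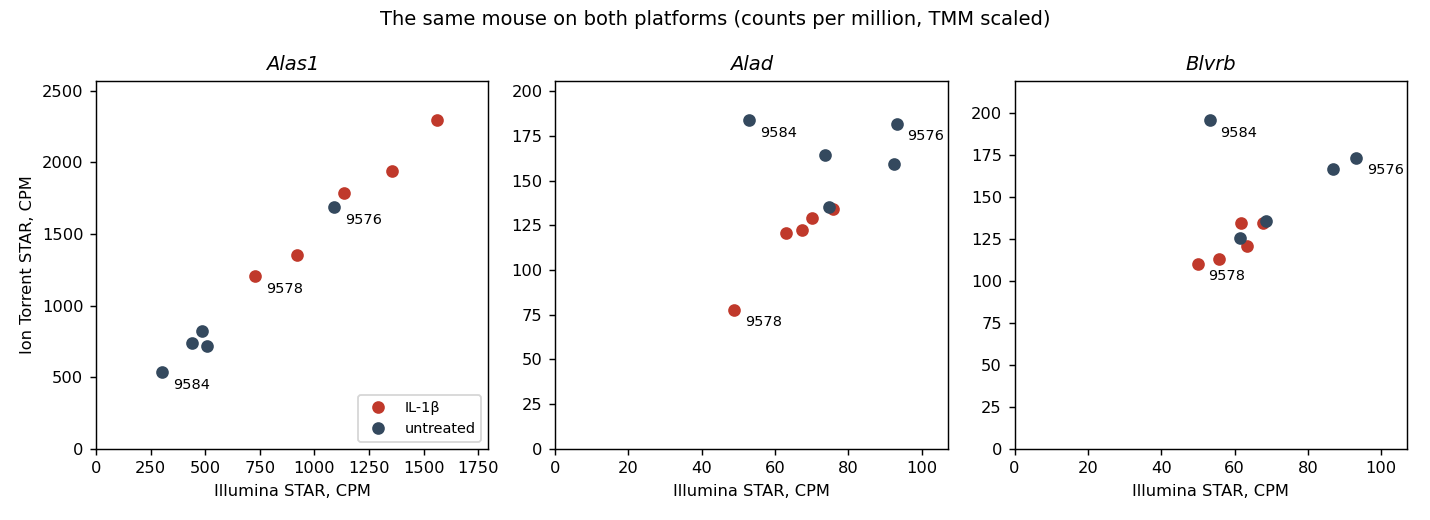
The 10 mice on both platforms for Alas1, Alad and Blvrb (x axis, TMM-scaled CPM in the Illumina STAR table; y axis, the same in the Ion Torrent STAR table), with IL-1β mice in red, untreated mice in grey-blue, and mice UNT_9576, ILB_9578 and UNT_9584 labelled. Alas1 keeps the mice in nearly the same order on both, whereas UNT_9584 is the lowest untreated mouse on Illumina (52.9 and 53.2 CPM) and the highest on Ion Torrent (184 and 196 CPM) for Alad and Blvrb.

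The groups did not overlap for 5 of the 9 genes in the Illumina STAR table, 1 higher and 4 lower after IL-1β. Over all genes tested, 17.6% were higher without overlap and 16.2% lower. The other tables also had 1 gene higher and 4 lower, except 3 lower with Ion Torrent STAR + Bowtie2. Over all genes these shares were 18.2% and 17.0% (Illumina GSNAP), 17.8% and 17.4% (Illumina STAR + Bowtie2), 15.5% and 15.6% (Ion Torrent STAR), 16.8% and 17.0% (Ion Torrent GSNAP), and 16.7% and 17.2% (Ion Torrent STAR + Bowtie2). Each of the 5 genes of the Illumina STAR table had an exact permutation p of 0.00794, the smallest that groups of 5 allow. Urod, Cpox, Fech and Blvra were without overlap in all 6 tables, and Uros in the 3 Illumina tables.

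Each other Illumina table called the same numbers as the Illumina STAR table, 2 higher and 4 lower. The backgrounds were 23.7% higher and 23.9% lower with GSNAP and 22.9% and 24.4% with STAR + Bowtie2. Each Ion Torrent table called 2 higher and 5 lower, namely Alas1 and Blvra higher and Alad, Urod, Cpox, Fech and Blvrb lower. The backgrounds were 20.3% higher and 21.8% lower with STAR, 22.5% and 23.9% with GSNAP, and 22.8% and 24.0% with STAR + Bowtie2. Without UNT_9584 the Ion Torrent STAR table called 2 higher and 4 lower (Blvrb lost), beside 18.8% and 20.0% of all genes. GSNAP and STAR + Bowtie2 then called 2 and 5 each, beside 21.0% and 22.0%, and 21.1% and 22.0%. Where a log2 fold change of at least 0.5 in size was also required, the Illumina STAR table called 2 higher and 2 lower, beside 17.3% and 18.1% of all genes.

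The platforms thus differed in the calls of Alad, Uros and Blvrb, and the difference itself was tested. The interaction of platform and treatment, in an edgeR fit of all 20 STAR libraries, was called for 0 of the 9 genes and for 0% of all genes, and 0 of the 9 had an unadjusted p below 0.05. The largest term was that of Alad, with an Ion Torrent effect minus Illumina effect of -0.23 (SE 0.22, 95% interval -0.68 to 0.22). With the mouse as a block the Alad term was -0.25 (95% interval -0.51 to 0.012), with an edgeR adjusted p of 0.701, and 0.00642% of all genes were called. The block narrowed the intervals, and the SE of the Alas1 term was 0.42 without it and 0.072 with it. Again 0 of the 9 genes had an unadjusted p below 0.05 in edgeR. These Alad values rested on UNT_9584: without that mouse the term was -0.076 (95% interval -0.50 to 0.35), and -0.083 with the block (95% interval -0.23 to 0.069). The largest term was then that of Uros, at 0.15 in both fits, with 0 of the 9 genes called, beside 0% of all genes without the block and 0.0642% with it. The intervals with all 10 mice include 0.

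**Figure D3:**
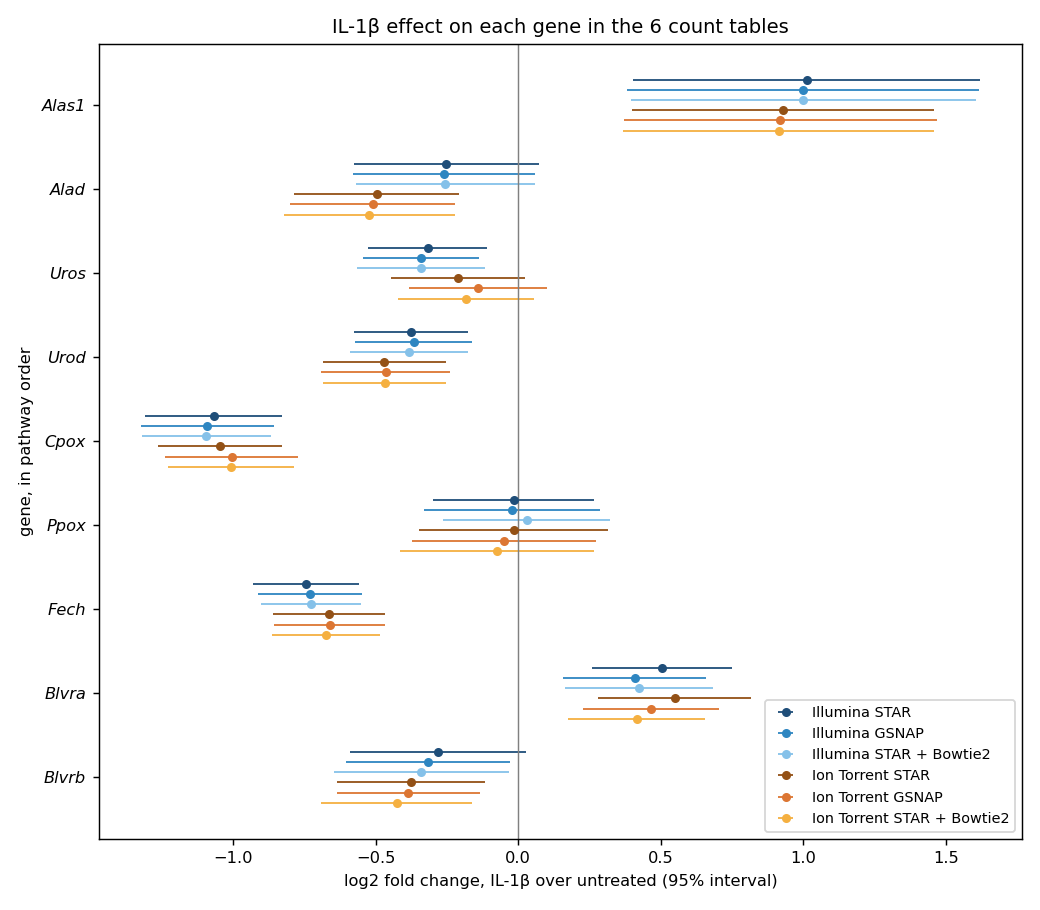
Log2 fold change of IL-1β over untreated mice (x axis) for the 9 genes in pathway order (y axis) in each of the 6 tables, with 95% intervals from edgeR (Illumina in blues, Ion Torrent in browns, 5 mice per group). Alas1 and Blvra lie right of 0 and Urod, Cpox and Fech left of it in every table, and Ppox straddles 0.

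Levels of the genes were set side by side per kilobase of exon, in TMM-scaled CPM of the Illumina STAR table. The length used was that of all annotated exon blocks of a gene, for example 4515 bases for Ppox and 3576 bases for Uros. It can exceed the length of the transcripts present, which was not measured, and would then understate the level of that gene. The order between genes therefore depends on the annotation, while the change of a gene between groups does not. In untreated mice the order of the means was Alas1 131, Fech 67.3, Blvrb 51.4, Alad 41.4, Cpox 41.1, Urod 30.5, Uros 5.60, Ppox 5.32 and Blvra 4.29 CPM per kilobase. Neighbours in this order overlapped over mice except for the steps from Urod to Uros and from Ppox to Blvra. After IL-1β the order was Alas1 264, Blvrb 42.3, Fech 40.2, Alad 34.8, Urod 23.5, Cpox 19.6, Blvra 6.09, Ppox 5.26 and Uros 4.49 CPM per kilobase. There Alas1 was above Blvrb, Alad above Urod, Urod above Cpox and Cpox above Blvra in every mouse, and the other neighbours overlapped.

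Per kilobase, the untreated mice had 0.949 to 4.21 times as much Alas1 as Fech, with a median of 1.59. The treated mice had 4.57 to 8.84 times as much, with a median of 6.56, so that even mouse UNT_9576 was below the lowest treated mouse in this ratio. The same ratio in the Ion Torrent STAR table was 1.99 to 6.25 untreated and 7.64 to 12.6 after IL-1β. This ratio joins the first and last steps of synthesis and was chosen after the values were seen, so it is given without a test.

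**Figure D4:**
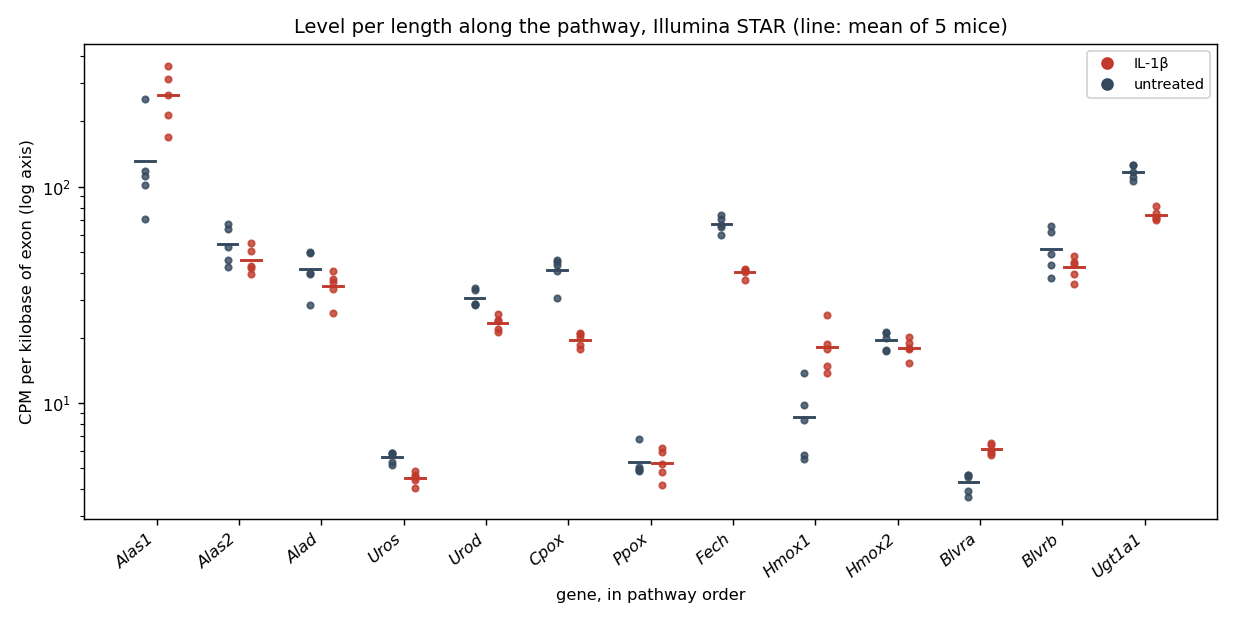
Level per kilobase of exon (y axis, TMM-scaled CPM per kilobase in the Illumina STAR table, log axis) of the genes from Alas1 to Ugt1a1 in pathway order, with 1 point per mouse and a line at the mean of 5 mice (untreated grey-blue, IL-1β red). Alas1 mean levels are 131 untreated and 264 after IL-1β, while Uros, Ppox and Blvra lie between 4.29 and 6.09 in both groups' means.

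The rest of the pathway was described from a list of 4 genes, of which 1 rose, 1 fell and 2 were not called. Over all genes tested in the Illumina STAR table, 22.7% were called higher and 22.9% lower. This list and the lists that follow were chosen with earlier results of these data known. Hmox1, the inducible heme oxygenase, rose: treated mice had 38.4, 31.9, 55.3, 40.4 and 29.8 CPM and untreated mice 18.0, 12.4, 11.9, 21.1 and 29.6 CPM in the Illumina STAR table. The groups just missed each other, with UNT_9584 the highest untreated mouse, and they overlapped in the other 5 tables, 2 of them Illumina. In the Ion Torrent STAR table UNT_9584 had 40.5 CPM. Hmox1 had a log2 fold change of 1.07 (SE 0.23), with an edgeR adjusted p of 0.00138, and 0.92 to 1.07 over the 6 tables. Hmox2, the constitutive form, had -0.11 (edgeR adjusted p 0.422).

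Ugt1a1, which conjugates bilirubin, fell from 260.9 ± 19.9 to 165 ± 9.65 CPM (SD, n = 5), a log2 fold change of -0.66 with an edgeR adjusted p of 2.24e-05. It shares exons with other Ugt1a genes, so its counts are uncertain. Alas2, the red cell form of aminolevulinate synthase, had a log2 fold change of -0.24 (SE 0.14), not called at an edgeR adjusted p of 0.164.

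Alas2 was at 54.4 CPM per kilobase untreated and 45.9 after IL-1β. The red cell genes beside it were low in the Illumina STAR table: Gata1 was at 0 in every library, and Hbb-b1 averaged 34.3 CPM untreated and 24.7 CPM treated. Of 10 erythroid markers, 6 were detected, of which 1 fell and 5 were not called. Their sum without Alas2 was 37.9 to 87.6 CPM untreated and 26.2 to 61.7 CPM after IL-1β. Its part in the levels of the 9 genes was not tested.

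Transport of heme and porphyrins was described from 19 genes, of which 3 rose, 10 fell and 6 were not called, with a median log2 fold change of -0.44 beside 0 for all genes. The shares over all genes were 22.7% higher and 22.9% lower. Where the mean count reached 100, the largest changes were falls. They were Hebp1, a cytosolic heme-binding protein (-0.79, edgeR adjusted p 2.70e-05), Abcg2, a porphyrin exporter (-0.73, edgeR adjusted p 0.000148), Tmem14c, which carries porphyrin into mitochondria (-0.69, edgeR adjusted p 0.000157), and Slc25a37, the mitochondrial iron importer mitoferrin 1 (-0.65, edgeR adjusted p 0.00133). Of these 19 genes, 3 rose: Flvcr1, a heme exporter, and the mitochondrial carriers Slc25a28 and Slc25a38 (1.47, 0.62 and 0.45), which are named outside the rule because they are the rises counted. Flvcr2, another transporter of that family, had the largest change of the list, falling from 3.35 to 0.394 CPM (-3.05, edgeR adjusted p 3.29e-06), and is named after its value was seen, since its mean of 21 counts is under the limit of the rule, as is that of Flvcr1 (91.2).

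A list of regulators linked to Alas1 or to heme held 15 genes, of which 3 rose, 8 fell and 4 were not called, with a median of -0.38. Over all genes, 22.7% were called higher and 22.9% lower. Nr1i3, the nuclear receptor CAR that drives Alas1 and cytochrome P450 genes in response to drugs, fell most, from 463 to 25.3 CPM (log2 fold change -4.19, edgeR adjusted p 1.94e-09). The 3 that rose were Hnf4a, a nuclear receptor of hepatocytes (1.05, edgeR adjusted p 3.94e-07), Clpx, a mitochondrial protease subunit that acts on ALAS proteins (0.79, edgeR adjusted p 0.00085), and Nrf1, the factor whose consensus is shown for Alas1 (0.60, edgeR adjusted p 0.000414). Ppargc1a, the coactivator that raises Alas1 in fasting, fell from 9.25 to 3.93 CPM (log2 fold change -1.23, edgeR adjusted p 0.00643), and it is named here after its value was seen.

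Proteins that hold heme were described from 16 genes, of which 12 fell, 1 rose and 3 were not called, with a median log2 fold change of -0.58. Beside these stand 22.9% of all genes called lower and 22.7% called higher. Cyp7a1, the rate-limiting enzyme of bile acid synthesis, fell from 213 to 8.02 CPM (-4.72, edgeR adjusted p 1.50e-05), and Cyp8b1, the sterol 12-hydroxylase, fell from 254.6 to 60.9 CPM (-2.06, edgeR adjusted p 4.07e-06). Cyp3a11, a major drug-metabolizing P450, had -0.75 (edgeR adjusted p 0.000977), and Cyb5a, cytochrome b5, had -0.71 (edgeR adjusted p 6.39e-05). The gene that rose was Cyp51, of cholesterol synthesis (0.65, edgeR adjusted p 0.00492), named because it is the count of 1.

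**Figure D5:**
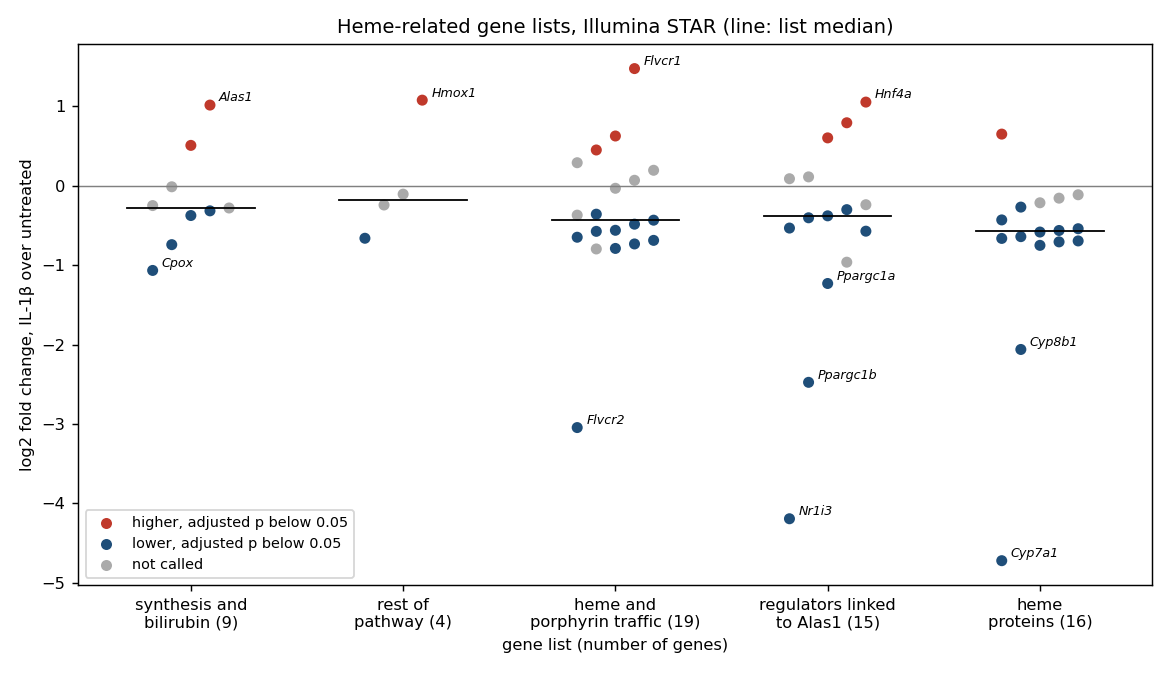
Log2 fold change of IL-1β over untreated mice (y axis, Illumina STAR table) for every tested gene of the 5 heme-related lists (x axis, number of genes in parentheses), coloured by the edgeR call, with a line at each list's median and names for genes beyond 1 or -1. The medians run from -0.18 for the rest of the pathway to -0.58 for the heme proteins, and Alas1, Hmox1, Flvcr1 and Hnf4a are the named genes above 1.

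Genes that varied between mice as Alas1 did were sought over the 10 Illumina STAR libraries, by the correlation of deviations of log2 CPM from the group means among 7809 genes whose mean count reached 100. The 5 closest were Actn4 (r = 0.95), Aacs (0.95), Agpat2 (0.94), 2310011J03Rik (0.94) and Sema4a (0.94). In the Ion Torrent STAR libraries of the same mice the values were 0.69, 0.88, 0.80, 0.44 and 0.30, so the likeness of the last pair was much weaker there. Without UNT_9584, over 9 libraries, they were 0.92 to 0.94 on Illumina and 0.90, 0.94, 0.94, 0.52 and 0.68 on Ion Torrent. Mouse UNT_9576 was the highest untreated mouse for all 5, for example 190.9 CPM of Aacs beside at most 75.1 CPM in the other untreated mice. None of the 5 was called for IL-1β in edgeR, with adjusted p from 0.119 to 1.

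Among the other 8 genes, Blvrb (r = 0.76), Alad (0.74) and Urod (0.52) varied with Alas1 most over these 10 libraries, and the remaining genes had r from -0.46 (Fech) to 0.26 (Ppox). Without UNT_9584 they were 0.65, 0.62 and 0.42. In the Ion Torrent STAR libraries the values were -0.027 for Blvrb, 0.38 for Alad and 0.67 for Urod, and 0.38, 0.60 and 0.70 without UNT_9584, so the likeness of Blvrb to Alas1 did not carry over to the other platform with all 10 mice. These values are descriptions over libraries that share the depth of their table, and mouse UNT_9584 was the lowest untreated mouse for all 3 genes on Illumina.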

How the data were processed

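Liver RNA of 10 mice was sequenced on Illumina (TruSeq stranded mRNA kit) and Ion Torrent (Ion Total RNA-Seq kit v2.0, poly-A selected, Proton). The authors aligned reads to mm9 with STAR 2.5.1b, GSNAP or STAR followed by Bowtie2 2.2.9, removed ribosomal and mitochondrial reads, drew a common number of gene reads from every library of a table with PORT, and deposited whole-number counts per gene. Re-sampling discards reads of deeper libraries, so the totals here are not sequencing depth, and counts carry sampling error on top of the spread between mice. All 60 count columns were used.

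Genes that reached 5 reads in 5 libraries of any 1 table (15578) were fitted per table with edgeR 4.0.16 (TMM factors 0.92 to 1.10, quasi-likelihood test, no block), in R 4.3.3. P-values were adjusted by Benjamini-Hochberg over all of them and called below 0.05. Standard errors are the log2 fold change over the root of F. Levels are TMM-scaled CPM. Exact permutation tests were two-sided, over 252 splits, on log2(CPM + 0.01). The platform-by-treatment term used the 20 STAR libraries, without a block for the mouse in the main fit. Mouse numbers in the labels pair the libraries of a mouse, and deviations from group means correlated at 0.51 to 0.72 for 9 mice and 0.20 to 0.24 for UNT_9584 over the 3 aligners. Scripts were tested on simulated data. The alternatives were relative log expression and library-total scaling, DESeq2 1.42.0, limma-voom (limma 3.58.1), the study's rank-sum test, other count filters, a minimum fold change, the other 5 tables and each mouse left out.

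The members and gene lists were chosen with earlier results of these data known. Named were the 9 members, 4 other pathway genes, up to 4 called genes of each other list with the largest changes (mean count 100 or more), and the 5 genes closest to Alas1 over libraries. Flvcr1 and Flvcr2 were matched by an older symbol, and Ahsp was not matched. Some genes of the lists are not reported here and were left out of the list counts. Gene positions are from the NCBI Build 37 annotation and promoters from RefSeq (GRCm38.p6).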

Additional observations from a re-analysis of the deposited data

Results flagged for a closer look

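In 36 groups of 5 mice (9 genes, 2 treatments and the STAR tables of both platforms), 5 had a mouse far from the other 4, with a gap to its nearest neighbour above 0.71 of the group's range. Chance flags about 1 in 20 such groups. Untreated mouse UNT_9576 was high for Alas1 on both platforms, at 1090.0 CPM against 304 to 508 CPM in the other untreated mice on Illumina and at 1686 CPM against 534 to 822 CPM on Ion Torrent. IL-1β mouse ILB_9578 was low for Fech on Illumina, at 107 CPM against 117 to 120.3 CPM. The same mouse was low for Alad on Ion Torrent, at 77.7 CPM against 121 to 134 CPM. Untreated mouse UNT_9575 was high for Ppox on Illumina, at 30.7 CPM against 21.9 to 22.9 CPM. The cause of these values was not tested.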

How the results depend on the processing

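Alas1, Uros, Urod, Cpox, Fech, Blvra, Alad and Blvrb kept the sign of their Illumina STAR log2 fold change in all 25 alternative fits, and Urod, Cpox, Fech and Blvra had an adjusted p below 0.05 in all of them. The number of genes called higher was 2 except for 1 with the rank-sum test, where Alas1 was not called (the cause was not tested). The rank-sum test used counts without TMM scaling, where the median log2 fold change of genes averaging 10 or more counts was -0.17. The number called lower was 4 in the Illumina STAR table and 2 (Cpox and Fech) when an absolute log2 fold change of at least 0.5 was also required (18.1% of all genes lower). Leaving out each mouse in turn gave 2 higher and 4 to 6 lower, the 6 without mouse UNT_9584, which added Alad and Blvrb, beside 20.8% to 22.6% of all genes higher and 20.9% to 22.4% lower. Ppox, never called, ranged from -0.083 to 0.089 with each mouse left out. It changed sign to 0.030 in the Illumina STAR + Bowtie2 table, to 0.017, 0.047 and 0.089 without mice ILB_9578, ILB_9582 and UNT_9575, and to 0.017 in the Ion Torrent STAR table without UNT_9584, an alternative added after the data were seen. In that refit Blvrb lost its Ion Torrent STAR call, at -0.29. Library totals without TMM added Blvrb to the calls, at -0.41 against a median shifted to -0.12. With the mouse as a replicate block, the platform-by-treatment term was called for 0 of the 9 genes (lowest edgeR adjusted p 0.701), and for 0 when UNT_9584 was also left out, the latter added after the data were seen (lowest 0.94). Blvra had the fewest counts of the 9 genes, 101 to 162 per Illumina STAR library.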
